A study of Homo sapiens with 16 samples.

Results

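The tubulin isotypes described here are 10 genes that encode the alpha-tubulins and beta-tubulins of the cytoplasm: TUBA1A, TUBA1B, TUBA1C and TUBA4A, and TUBB, TUBB2A, TUBB2B, TUBB3, TUBB4B and TUBB6. They were chosen by name, and each had a row of its own among the 27043 gene rows of the count table. The table covers 603 cells of the human neuroblastoma line SK-N-AS, whose RNA was counted by MARS-seq, which tags the 3′ ends of polyadenylated RNA in cells sorted singly into plate wells. The cells were untreated and grown in RPMI medium with fetal calf serum. The labels list 16 samples, all of the same line and culture, but the columns carry barcodes that name none of them, so the cells were taken as 1 sample without replicates and no test between samples was made.

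Alpha-tubulin and beta-tubulin form the heterodimer from which microtubules are built. Vertebrates encode each subunit in several genes whose proteins are close to identical over most of their length and differ mainly at the acidic carboxy-terminal tail. TUBB3, the class III beta-tubulin, is widely used as a marker of neurons and neuroblastoma, and TUBA1A is the main alpha-tubulin of developing neurons, while TUBA1B, TUBB and TUBB4B are made in most tissues. Dividing cells rebuild their microtubules into the mitotic spindle.

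Cells held from 1000 to 42404 counts with a median of 2106. The barcodes repeat in the order of the columns: 316 columns form a first set and 287 a second, with 239 barcodes in both, and values within each set are given as a check. Of 8 sympathetic lineage markers only DBH had 0 counts, with HAND2 at 273 CPM (counts per 1000000) and GATA2 at 202 CPM, whereas TH had 3 counts. All 4 erythroid markers and 5 of 6 Schwann cell precursor markers were at 0, and endothelial markers summed to 3 counts. Immune markers summed to 114 counts, 84 of them of CD68 and 29 of PTPRC.

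Start regions of 3 members are printed first because these genes stand for the 3 patterns found below: TUBB4B was high where mitotic genes were high, TUBA1A was low there, and TUBB3 did neither. The sequences come from RefSeq on GRCh38.p14, each with 250 bases before and 50 after an annotated start, 5′ to 3′ on the gene's strand. Capitals mark TTTGAA, the core of the cell cycle genes homology region, and CCAAT, the box bound by NF-Y, on either strand. Both elements are known from promoters of mitotic genes. TUBB3 has windows at 2 annotated starts.
TUBB4B, chr9:137241037-137241336, plus strand: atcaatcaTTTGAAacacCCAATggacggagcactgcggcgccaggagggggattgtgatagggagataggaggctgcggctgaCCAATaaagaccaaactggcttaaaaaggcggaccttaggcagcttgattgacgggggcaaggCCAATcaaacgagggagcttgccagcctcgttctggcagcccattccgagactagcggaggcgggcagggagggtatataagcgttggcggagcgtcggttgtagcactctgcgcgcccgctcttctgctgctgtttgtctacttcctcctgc
TUBA1A, chr12:49189031-49189330, minus strand: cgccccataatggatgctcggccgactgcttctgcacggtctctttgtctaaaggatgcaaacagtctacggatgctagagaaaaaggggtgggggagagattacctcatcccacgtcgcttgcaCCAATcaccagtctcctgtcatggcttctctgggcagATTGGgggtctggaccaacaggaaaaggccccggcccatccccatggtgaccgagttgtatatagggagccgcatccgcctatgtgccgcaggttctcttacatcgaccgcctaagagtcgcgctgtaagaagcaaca
TUBB3, chr16:89921675-89921974, plus strand: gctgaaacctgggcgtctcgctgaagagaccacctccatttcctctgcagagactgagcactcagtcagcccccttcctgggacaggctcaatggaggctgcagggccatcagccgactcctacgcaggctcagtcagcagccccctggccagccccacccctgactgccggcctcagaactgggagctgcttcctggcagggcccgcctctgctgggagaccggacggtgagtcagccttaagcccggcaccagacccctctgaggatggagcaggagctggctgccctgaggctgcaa
TUBB3, chr16:89923092-89923391, plus strand: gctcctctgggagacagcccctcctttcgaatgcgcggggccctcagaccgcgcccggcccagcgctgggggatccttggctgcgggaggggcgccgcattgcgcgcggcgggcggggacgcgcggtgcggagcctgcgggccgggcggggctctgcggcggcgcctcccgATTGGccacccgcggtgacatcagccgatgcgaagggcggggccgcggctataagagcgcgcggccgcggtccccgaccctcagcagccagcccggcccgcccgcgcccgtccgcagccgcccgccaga

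All 10 members had at least 1 such window, 15 windows in all. TTTGAA was found in the TUBB4B window, 242 bases before the start, and in the 3 windows of TUBA1C, and in no window of the other 8 members. In the TUBA1C window at chr12:49227769-49228068 it lay 6 bases after the start. It occurs in 15.2% of the 35116 windows of this length in the table. CCAAT was found 3 times in the TUBB4B window, at 232, 166 and 103 bases before the start, and 2 times in that of TUBA1A, and it occurs in 34.6% of all windows. It was also found in the 3 windows of TUBA1C and in a window each of TUBB, TUBB2B and TUBB6, but in none of TUBA1B, TUBA4A and TUBB2A. The TUBA1C windows at chr12:49227676-49227975 and chr12:49227769-49228068 overlap, and their CCAAT match is the same site. The downstream TUBB3 window held 1 match on the other strand and the other TUBB3 window held 0. The marked letters overlap each other nowhere in these windows. These are letter matches and were not tested as binding sites.

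TUBA1B dominated the isotype mix. The 10 genes together held 15883 counts, 1.03% of all counts, of which alpha-tubulin took 64.0% (63.2 to 64.7) and beta-tubulin 36.0% (35.3 to 36.8). Intervals here and below are at 95%, exact Poisson for levels and exact Clopper-Pearson for shares, and cover counting error only. Counts come from transcript ends, so levels were not divided by transcript length, and unequal capture of different genes was not measured. The intervals treat every count as a separate molecule. Whether that holds is unknown, because a count could also be a read.

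Among the alpha genes, TUBA1B, the ubiquitous isotype, stood at 5149 CPM (5036 to 5264), 77.9% of alpha counts and the 13th most counted gene of the table. TUBA1C stood at 731 CPM (689 to 775) and TUBA1A at 727 CPM (685 to 771), levels whose intervals overlap almost fully. TUBA4A, an isotype encoded without the final tyrosine of most alpha-tubulins, had 4 counts in all. TUBA1A was the member that differed most between barcode sets among those well counted, at 639.7 CPM (585 to 698) in set 1 and 819 CPM (755 to 886) in set 2.

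Among the beta genes, TUBB, the class I isotype, stood at 2002 CPM (1932 to 2074), 53.8% of beta counts. TUBB4B, class IVb, followed at 1052 CPM (1001 to 1104), or 28.3%. TUBB3 stood at 246 CPM (222 to 272), TUBB2A at 229.6 CPM (206 to 255) and TUBB6, the class V isotype, at 187 CPM (166 to 210.2), or 6.61%, 6.17% and 5.03% of beta counts. TUBB3 and TUBB2A thus did not differ beyond counting, and TUBB2B, a beta isotype of developing brain, had 6 counts in all. The neuronal marker TUBB3 made up 2.38% of the counts of the 10 members.

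**Figure D1:**
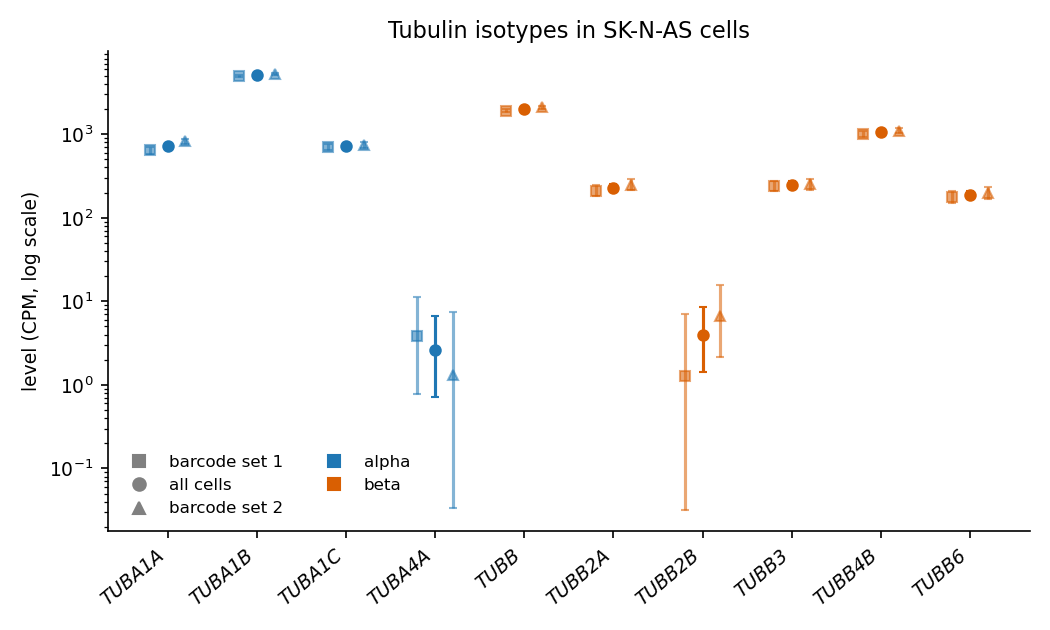
Level of each tubulin isotype in CPM on a log axis, for all cells (circles) and for each barcode set (squares and triangles); bars are 95% Poisson intervals. TUBA1B stands highest at 5149 CPM, and TUBA4A and TUBB2B rest on 4 and 6 counts.

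How well 3′ counts can tell these genes apart was read from the transcripts of GENCODE release 29. Of the 270 words of 31 bases in the last 300 bases of the principal transcript, TUBA1A shared 20.7% with a transcript of another gene, TUBA1B 25.2%, TUBB4B 23.3% and TUBB2A 26.7%. TUBA1A and TUBA1B shared 54 words with each other, and all 72 shared words of TUBB2A occur in TUBB2B. TUBA1C shared 10.7%, none of it with another member but spread over 651 other genes. TUBB had 2.59% shared words, and TUBB6, TUBA4A and TUBB2B had 0. For TUBB3 98.1% of words also lie in AC092143.1, an annotated gene that overlaps it, so the 2 cannot be told apart. TUBA1A, TUBA1B, TUBA1C, TUBB2A and TUBB4B counts are therefore uncertain to the extent that reads of shared stretches were split, and the sources used here give neither the read length nor the counting rule.

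For values per cell, the 560 cells with at least 1100 counts were each thinned at random to 1100. At that depth a cell held from 1 to 28 tubulin counts with a median of 11.5. Each of these 560 cells thus had at least 1 tubulin count. The median cell had 7 alpha and 4 beta counts, and 4 cells had 0 alpha and 32 cells 0 beta counts. Cells most often showed 4 of the 10 isotypes (32.9% of cells), and the most seen in a cell was 8.

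TUBA1B had a count in 96.6% of thinned cells (98.7% of all cells unthinned), with 0 to 15 counts and a median of 6. TUBB had a count in 85.2%, with a median of 2, TUBB4B in 58.2%, TUBA1A in 52.5% and TUBA1C in 49.8%. TUBB2A was seen in 22.7% of cells, TUBB3 in 20.4% (36.2% unthinned) and TUBB6 in 15.7%, with medians of 0. For TUBB3 the share lies near the 21.1% that an even level in every cell would give at its mean of 0.24 counts, so most cells without a count need not lack the transcript.

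Cell-to-cell spread was set against that of genes of like level. By the number of such genes above it TUBB4B stood out most, and by the ratio to their median TUBA1B did. The TUBB4B variance over mean was 1.54, against a median of 1.12 in the 100 genes of nearest mean, of which 4 lay above it. TUBA1A followed with 1.39 against 1.11, with 7 of 100 above, and TUBA1C with 1.37 against 1.11, with 11 above. TUBA1B had 1.93 against 1.28, with 13 above, and TUBB3 1.17 against 1.07, with 15 above. TUBB, TUBB2A and TUBB6 had 19, 24 and 32 of 100 above them, so their spread was nearer to that of other genes.

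The main comparison asks which isotypes go with mitotic genes. Each cell was scored by its thinned counts over 70 mitotic genes, none of them a tubulin, led by BIRC5, a chromosomal passenger subunit (432 CPM), the ubiquitin-conjugating gene UBE2C (331 CPM), the spindle assembly factor gene TPX2 (276 CPM), the proliferation marker MKI67 (274 CPM) and the mitotic transcription factor gene FOXM1 (238 CPM). The 186 cells with the highest scores (8 or more) were set against the 186 with the lowest (3 or fewer), with ties at the bounds broken at random. These groups are ranges of a continuous score, not cell types. A ratio of at least 1.5-fold was called.

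Tubulin RNA as a whole was higher in cells with a high mitotic score. The 10 members had 14.3 counts per cell in the upper group (13.7 to 14.8) and 8.36 in the lower group, a log2 ratio of 0.77 (0.68 to 0.86, exact conditional binomial interval). Medians were 14 and 8 counts, though the ranges of 1 to 28 and 1 to 23 overlapped widely. Alpha-tubulin (0.74) and beta-tubulin (0.82) differed to a like degree. Of the 8 members with at least 50 counts, 5 were higher by 1.5-fold, against 19.1% of the 4590 genes compared, and 1 was lower, against 15.6%. The median log2 ratio of the 8 members was 0.79 and that of all genes was 0.

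TUBB4B had the largest ratio of the members. It had 1.61 counts per cell (1.43 to 1.80) in the upper group and 0.58 in the lower, a log2 ratio of 1.47 (1.15 to 1.80). It was seen in 75.3% of upper cells and 41.4% of lower ones, with 0 to 8 counts against 0 to 4. Among the 4590 genes outside the mitotic list it ranked 121st from the top. Most genes of the mitotic list differed more: 48 of them with at least 50 counts, each compared with itself left out of the score, had a median log2 ratio of 2.87 and a lowest of 0.97.

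The alpha isotypes did not differ alike. TUBA1C had 1.22 counts per cell in the upper group (1.06 to 1.38) and 0.52 in the lower, a log2 ratio of 1.24 (0.88 to 1.60), and was seen in 66.7% against 37.6% of cells. TUBA1B had 7.12 (6.75 to 7.52) against 3.82, a log2 ratio of 0.90 (0.77 to 1.03), with medians of 7 and 3. TUBA1A went the other way, with 0.71 counts per cell in the upper group (0.59 to 0.84) and 1.08 in the lower, a log2 ratio of -0.61 (-0.93 to -0.28). It was seen in 47.3% against 56.5% of cells, and no upper cell had more than 3 counts while lower cells reached 7. Its ratio lies close to the 1.5-fold line: it was below 0 in all 10 alternative settings and past the line in 4 of them, with -0.46 in barcode set 1, -0.77 in set 2 and -0.49 with another random thinning.

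Of the other beta isotypes, TUBB had 2.84 counts per cell (2.60 to 3.09) against 1.78, a log2 ratio of 0.67 (0.47 to 0.88). That is less than for TUBB4B, and the 2 intervals do not overlap. TUBB passed 1.5-fold in 8 of 10 alternatives, and stood at 0.57 in barcode set 1 and at 0.48 with cells split at the median. TUBB6 had 44 counts against 23, a log2 ratio of 0.94 whose interval (0.18 to 1.73) is wide, and was past 1.5-fold in all 10 alternatives. The alternatives reuse the same cells. The TUBB6 ratio was 0.69 (-0.37 to 1.81) in barcode set 2, from 21 counts against 13, and 0.61 (0.01 to 1.22) with the median split. TUBB2A had 54 counts against 43 and a log2 ratio of 0.33 (-0.28 to 0.94), which did not pass 1.5-fold.

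TUBB3 did not follow the mitotic score at this depth. It had 43 counts in the upper group and 41 in the lower, a log2 ratio of 0.07 (-0.58 to 0.72). It was seen in 20.4% (14.9 to 26.9) of upper and 19.9% (14.4 to 26.4) of lower cells, with 0 to 2 and 0 to 3 counts. Over the 10 alternatives its log2 ratio ran from -0.26 to 0.46. The interval reaches past 1.5-fold in the higher direction and ends just short of it in the lower, so equal levels are not shown. The ratio of TUBB4B lies outside that interval. With another random thinning the TUBB3 interval ran from -0.87 to 0.33. With full counts the TUBB3 ratio was -0.01 (-0.39 to 0.37), from 132 counts against 108. TUBA4A had 1 count in the upper group and 0 in the lower and TUBB2B 0 and 2, too few for a ratio.

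**Figure D2:**
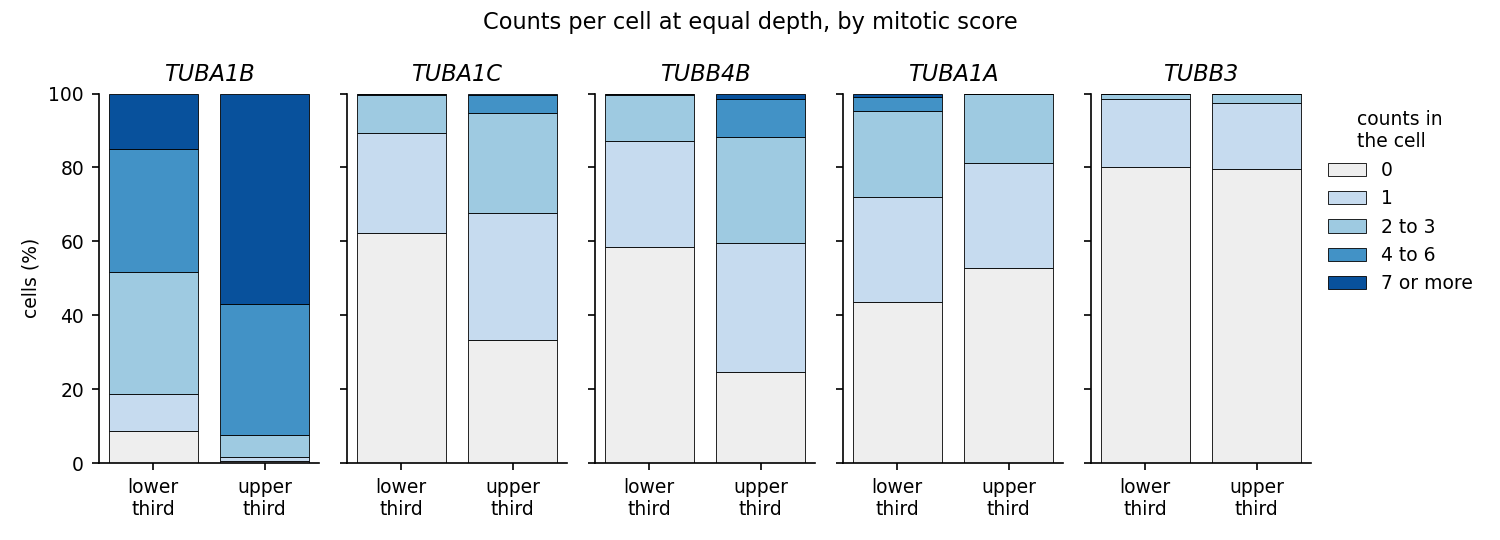
Share of cells (%) by the number of counts of TUBA1B, TUBA1C, TUBB4B, TUBA1A and TUBB3 in a cell thinned to 1100 counts, for the lower and upper group of cells by mitotic score (186 cells each). The share of cells at 0 in the lower and upper group is 58.6% and 24.7% for TUBB4B, 80.1% and 79.6% for TUBB3, and is 43.5% and 52.7% for TUBA1A.

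The cells compared also differed in depth before thinning, with median totals of 2496 counts in the upper and 2066 in the lower group. TUBB4B itself had a Spearman rho of 0.11 with the total of its cell, TUBA1B one of -0.09 and TUBB3 one of 0.04. Among 2082 genes, 17 had a higher rho with the total than TUBB4B, 462 than TUBB3 and 2023 than TUBA1B. TUBB4B and TUBA1B thus lay near opposite ends of the genes, though both values are small. The part of depth in the ratios was not tested beyond the thinning. With the full counts in place of the thinned ones, TUBA1A stood at -0.56. Leaving the microtubule-binding genes out of the score gave 5 members past 1.5-fold in either direction and TUBA1A at -0.45.

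In groups 1 to 4 of 140 cells each, in order of mitotic score, the isotypes took different courses. TUBB4B stood at 0.54, 0.76, 1.22 and 1.72 counts per cell from group 1 to group 4. TUBA1C followed the same order with 0.48, 0.60, 0.81 and 1.29, and TUBB with 1.71, 2.14, 2.44 and 2.93. TUBA1B stood at 3.48 and 5.75 in groups 1 and 2 and at 7.04 and 7.03 in groups 3 and 4, so that no difference was seen between the last 2. TUBA1A was highest in group 1, with 1.14, and stood at 0.89, 0.70 and 0.75 in the others. TUBB3, at 0.20, 0.29, 0.21 and 0.24, showed no order.

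**Figure D3:**
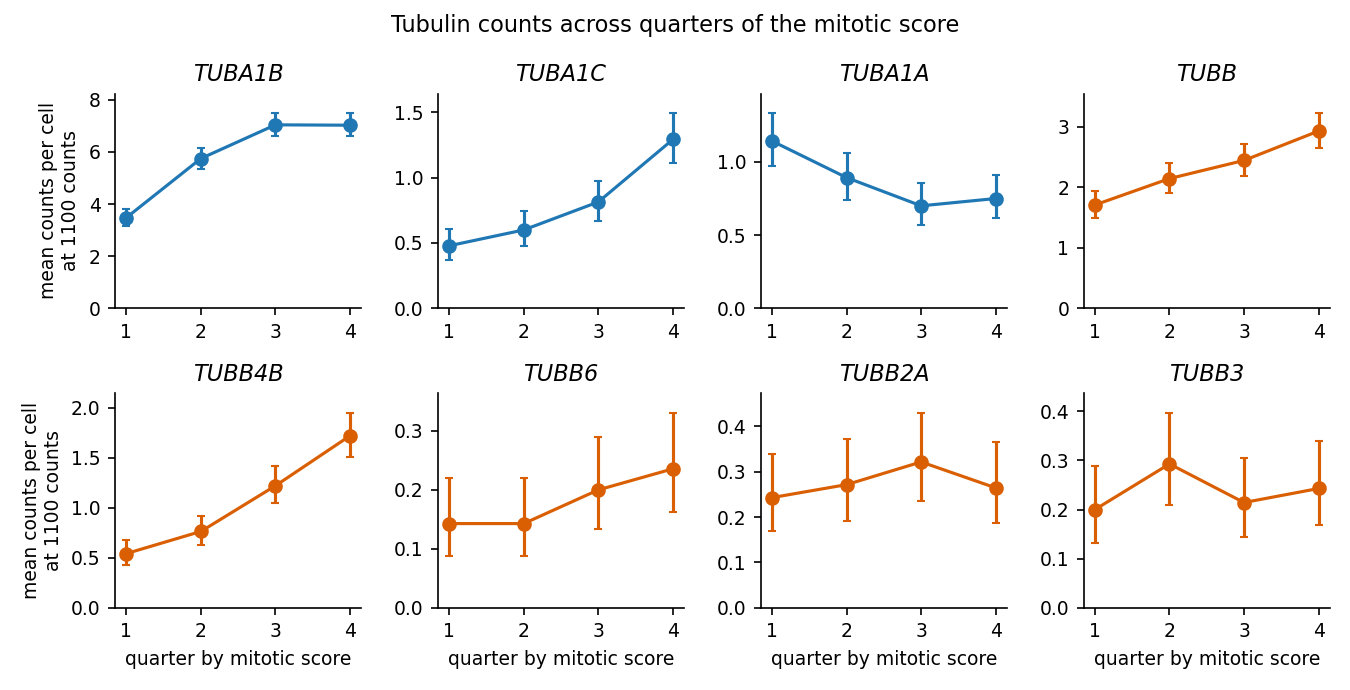
Mean counts per cell at 1100 counts for 8 isotypes (blue alpha, orange beta) in 4 equal groups of cells ordered by mitotic score, 140 cells each, with 95% Poisson intervals; each panel has its own axis from 0. TUBB4B runs from 0.54 to 1.72, TUBA1A from 1.14 to 0.75 and TUBB3 from 0.20 to 0.24.

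The mix within each family shifted accordingly. TUBB4B made up 30.9% of beta counts in the upper group (28.0 to 33.9) and 19.7% in the lower (16.5 to 23.3), and the intervals are apart. TUBB made up 54.5% and 60.4%, with intervals that overlap slightly (51.3 to 57.7 and 56.2 to 64.5). TUBB3 made up 4.44% (3.23 to 5.94) and 7.48% (5.42 to 10.0), from 43 of 968 and 41 of 548 beta counts. These intervals also overlap slightly, which does not show equal shares. TUBA1A made up 7.84% of alpha counts in the upper group (6.60 to 9.23) and 19.96% in the lower (17.5 to 22.6). TUBA1B took 78.7% and 70.5%, and TUBA1C 13.4% and 9.53%.

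**Figure D4:**
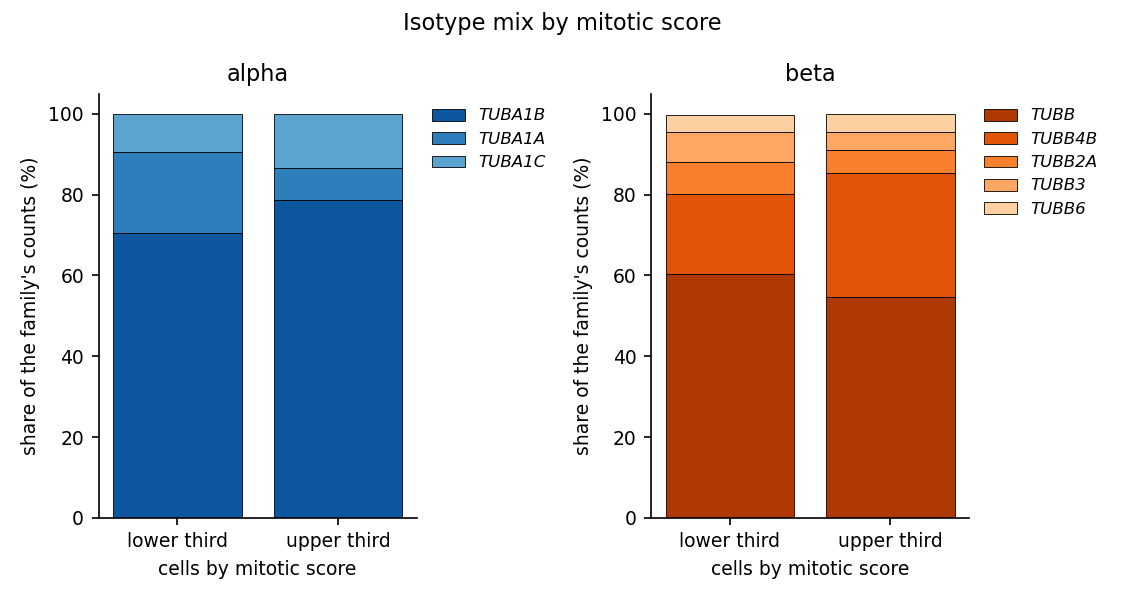
Share (%) of alpha-tubulin and beta-tubulin counts held by each isotype in the lower and upper group of cells by mitotic score, 186 cells each. The TUBA1A share is 19.96% in the lower and 7.84% in the upper group, and the TUBB4B share 19.7% and 30.9%; TUBA4A and TUBB2B, with at most 2 counts in a group, are not drawn.

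Correlations across the 560 cells put the members in another order than the ratios did, with TUBA1B first. Spearman's rho with the mitotic score was 0.44 for TUBA1B, 0.36 for TUBB4B, 0.29 for TUBA1C and 0.24 for TUBB, and it was 0.06 for TUBB6, 0.03 for TUBB2A, 0.02 for TUBB3 and -0.10 for TUBA1A. Over 2058 genes with a mean of at least 0.1 thinned counts the median was 0.0019, and the middle 90% ran from -0.09 to 0.11. These are descriptions of cells that share libraries and depth. Because rho is smaller for thinly counted genes, values of the less counted members, TUBB4B and TUBA1C among them, cannot be set against that of TUBA1B. With cells thinned to 2000 counts rho was 0.48 for TUBA1B, 0.47 for TUBB4B, 0.43 for TUBA1C and 0.30 for TUBB.

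A score over 50 DNA replication genes was used in the same way to set replication beside mitosis. TUBA1B was higher where replication genes were high, with 6.72 against 4.52 counts per cell and a log2 ratio of 0.57 (0.45 to 0.70), just under 1.5-fold. TUBB4B stood at 0.12 (-0.18 to 0.43), TUBB at 0.17 (-0.03 to 0.37), TUBA1C at -0.19 (-0.55 to 0.17) and TUBB3 at 0.07 (-0.57 to 0.70). No member passed 1.5-fold in either direction, where 14.9% of 4606 genes were higher and 15.1% lower. In 2 of 8 alternatives 2 members did. With cells thinned to 2000 counts these were TUBA1B at 0.67 and TUBB6 at -0.70, turned from 0.47, and in barcode set 1 they were TUBA1B at 0.70 and TUBA1A at -0.63.

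The cells were also split at the median of both scores. Among 280 cells with low mitotic scores, TUBA1B had 5.81 counts per cell where replication genes were high and 3.70 where they were low, a log2 ratio of 0.65 (0.49 to 0.81). Among cells with high mitotic scores it had 7.06 counts per cell where replication genes were high, with a log2 ratio of 0.01 (-0.12 to 0.14). TUBB4B had 0.79 against 0.55 in the first case, a log2 ratio of 0.54 (0.10 to 0.97), and 1.40 against 1.56 in the second, one of -0.16 (-0.44 to 0.13). TUBB stood at 0.38 (0.13 to 0.63) and -0.09 (-0.30 to 0.12), and TUBB6, from 25 counts against 15 and 32 against 29, at 1.13 (0.15 to 2.16) and -0.25 (-1.02 to 0.52). Thus TUBA1B, TUBB, TUBB4B and TUBB6 were all higher with replication genes among cells with low mitotic scores, and among the others their intervals spanned 0. The cells with low mitotic scores still spanned scores of 0 to 5. Across them TUBA1B ran from 3.48 counts per cell in group 1 by mitotic score to 5.75 in group 2. Mitotic scores were not matched within this split, so it does not fully separate replication from mitosis. Compared by mitotic score among cells with high replication scores, TUBB4B stood at 0.82 (0.47 to 1.18) and TUBA1C at 0.61 (0.19 to 1.03). TUBA1B stood there at 0.28 (0.14 to 0.42), TUBB at 0.24 and TUBB6 at -0.04 (-0.84 to 0.78). These and TUBA1A, at -0.30 (-0.70 to 0.09), were under 1.5-fold. Among cells with low replication scores the log2 ratios, in the same order, were 1.51, 1.33, 0.92, 0.71, 1.35 and -0.60. TUBA1C was highest, at 1.21, where mitotic genes were high and replication genes low, against 0.93 where both were high and 0.48 where both were low. TUBA1A was highest where both were low, at 1.13 counts per cell. It stood at 0.71 where both were high and at 0.74 where mitotic genes were high and replication genes low. Those last values did not differ beyond counting, with a log2 ratio of -0.07 (-0.48 to 0.35).

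Scores for cell state asked whether any isotype goes with the adrenergic, neuronal or mesenchymal genes of neuroblastoma. TUBA1A was higher in cells rich in adrenergic transcripts, with 1.14 counts per cell in the upper group (0.99 to 1.30) and 0.64 in the lower, a log2 ratio of 0.83 (0.50 to 1.17), and was seen in 60.2% against 44.1% of cells. It was the only member higher by 1.5-fold, where 17.1% of 4626 genes were. Within barcode sets 1 and 2 the ratio was 0.53 and 1.09. SCG2, a granin, gave 31.4% of the adrenergic list's counts, and without it TUBA1A stood at 0.59 (0.27 to 0.91). Among the 280 cells with low mitotic scores the ratio was 0.89 (0.47 to 1.32), and among the other 280 it was 0.37 (-0.14 to 0.89), under 1.5-fold.

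TUBB3 gave no stable direction with these scores. Its log2 ratio with the adrenergic score was -0.03 (-0.67 to 0.61), from 43 counts against 44, though with full counts it stood at 0.41 (0.02 to 0.80). With a score over 28 genes of neuronal differentiation it was -0.32, from 36 counts against 45 and with an interval spanning 0, but it turned to 0.67 (0.10 to 1.27) with cells thinned to 2000 counts and rested on 14 counts against 28 among cells with low mitotic scores. With a mesenchymal score over 36 genes, VIM not among them, it was -0.50 (-1.18 to 0.17). The mesenchymal comparison had 15 counts against 30 in barcode set 1 and 21 against 21 in set 2. No member passed 1.5-fold with the mesenchymal score, where 15.2% of 4613 genes were higher and 14.4% lower. This count depended on the cells used. In barcode set 2 TUBB2A stood at 1.40 (0.48 to 2.40), from 37 counts against 14, and TUBB6 at 1.22 (0.03 to 2.53), whereas in set 1 they stood at -0.47 and -0.34, and with full counts TUBB6 stood at 0.66 (0.22 to 1.12).

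With the adrenergic and neuronal scores 1 other isotype each passed 1.5-fold, both on few counts. TUBA1C stood at -0.49 (-0.84 to -0.13) with the adrenergic score, under 1.5-fold. TUBB2A was lower with the adrenergic score, 39 counts against 59, a log2 ratio of -0.60 (-1.22 to 0.01), which passed 1.5-fold in 5 of 11 alternatives and was -0.24 with another random thinning, where 14.4% of genes were lower by 1.5-fold. TUBB6 was lower with the neuronal score, 20 counts against 47, a log2 ratio of -1.23 (-2.07 to -0.45), where 13.9% of 4630 genes were lower. That ratio was -0.17 with cells thinned to 2000 counts, -0.26 with another random thinning and -0.36 without UCHL1. TUBA1A was again higher with the neuronal score, at 0.57 (0.24 to 0.90), just under 1.5-fold, where 15.8% of genes passed it. UCHL1 gave 50.6% of the neuronal list's counts.

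**Figure D5:**
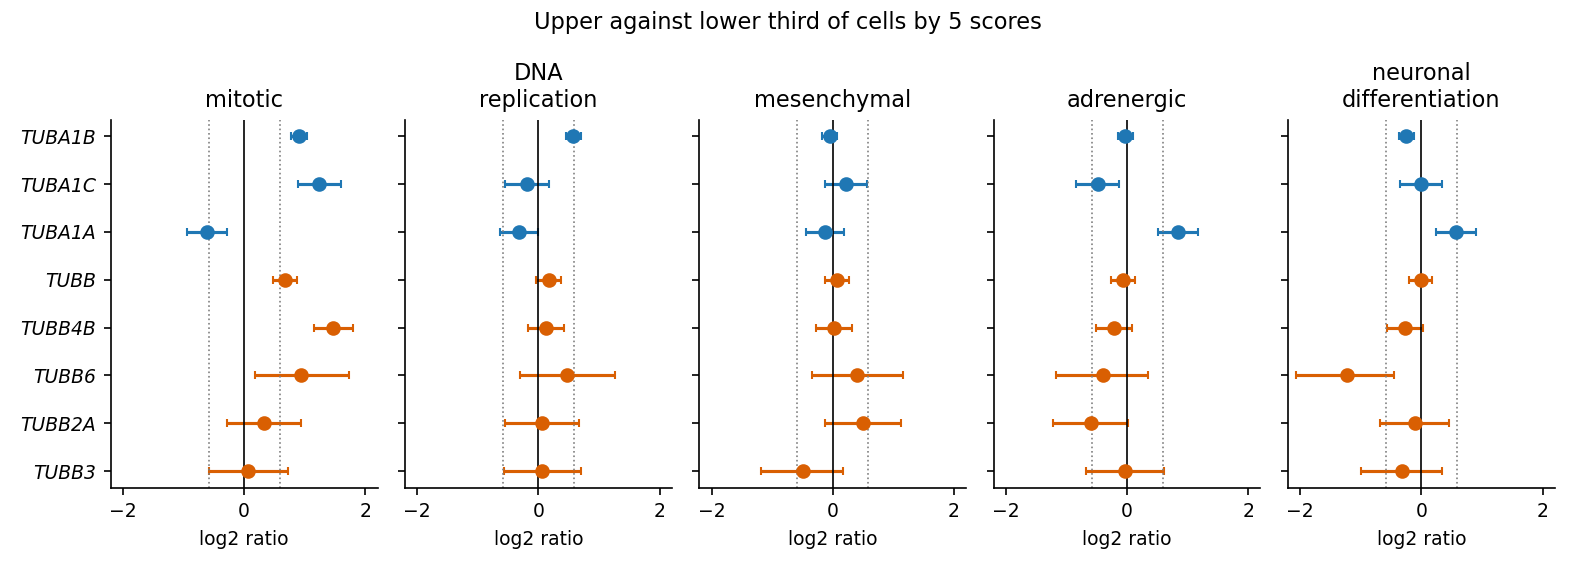
Log2 ratio of thinned counts in the upper over the lower group of cells by each of 5 scores, for 8 isotypes, with 95% exact conditional binomial intervals; dotted lines mark 1.5-fold. With the mitotic score TUBB4B stands at 1.47, TUBA1A at -0.61 and TUBB3 at 0.07, and with the adrenergic score TUBA1A stands at 0.83.

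Genes whose counts ran most nearly with 4 of the isotypes were named by Spearman's rho across the 560 cells, among 2081 genes. For TUBA1B they were the histone variant gene H2AFZ (0.34), the chromatin protein gene HMGB2 (0.29), the replication-dependent histone gene HIST1H4C (0.23), the mitotic kinase gene PLK1 (0.23) and DTYMK, of thymidylate metabolism (0.22). For TUBB4B they were TPX2 (0.26), PLK1 (0.22), UBE2C (0.22), the kinase gene AURKA (0.22) and TUBA1B (0.21). For TUBB they were HMGB2 (0.20), TUBA1B (0.18), H2AFZ (0.17), the enolase gene ENO1 (0.17) and BTBD6 (0.15).

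For TUBB3 the first was TUBA1A (0.17), followed by C7orf50 (0.17), C12orf34 (0.16), DAD1 (0.16) and the chaperone gene HSPA8 (0.15), none of them in the mitotic list. The 114 cells with a TUBB3 count had 1.22 TUBA1A counts each and the 446 without had 0.78, a log2 ratio of 0.64 (0.35 to 0.93). The same ratio was 0.01 (-0.12 to 0.13) for TUBA1B and -0.06 (-0.37 to 0.23) for TUBB4B. These correlations are weak and the pair was named for ranking first, so they stand as description. Summed alpha and beta counts had a rho of 0.28.

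The other tubulin genes and the genes that fold, nucleate or modify tubulin give the setting. Of 13 other tubulin genes 7 had 0 counts. TUBG1, the gamma-tubulin that nucleates microtubules, stood at 277 CPM with a mitotic log2 ratio of 1.05 (0.41 to 1.71), TUBG2 at 33.2 CPM with 2 counts against 9, and TUBD1, delta-tubulin, at 13.7 CPM. In the gamma-tubulin ring complex list 4 of 7 genes with at least 50 counts were higher by 1.5-fold and 1 lower, with a median of 0.93. They include CDK5RAP2, a centrosomal anchor of the complex, at 1.35 (0.30 to 2.50), while MZT2B (448 CPM, 0.34) and MZT2A (194 CPM, 0.12) did not pass.

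The folding genes ranged widely in level, from 1.95 CPM for TBCEL, named after its value was seen as the lowest, to 1025 CPM for PFDN2. Of 20 genes for the chaperonin, prefoldin and tubulin cofactors, 3 were higher by 1.5-fold and 0 lower, with a median of 0.09. With the mitotic score PFDN2 had a log2 ratio of 0.24. CCT3 stood at 828 CPM (0.14) and CCT5 at 784 CPM (0.37), and the largest ratios were those of PDCL3 (1.58, 12 counts against 4) and the cofactor gene TBCD (1.15, 20 against 9). Among 13 microtubule-associated genes with at least 50 counts 4 were higher and 2 lower, with a median of 0.29. CKAP5, a microtubule polymerase, stood at 2.04 (0.96 to 3.28) and MAP7D1 (233 CPM) at 1.12, while MAP1B (621 CPM) stood at -0.05 and TPT1 (1979 CPM) at -0.47. The neuronal gene STMN2 had 3 counts against 14, a log2 ratio of -2.22 (-4.66 to -0.38).

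Enzymes that modify tubulin were low apart from TTL, the tubulin tyrosine ligase, at 276 CPM with a mitotic log2 ratio of -0.03. AGBL5, a carboxypeptidase, stood at 83.9 CPM (0.75, -0.19 to 1.75) and SVBP, the partner of the detyrosinating vasohibins, at 46.2 CPM with 15 counts against 10, exactly on the 1.5-fold line. Of 6 such genes with at least 50 counts these 2 were higher by 1.5-fold and 0 lower, with a median of -0.01. The 1.5-fold shares over all genes, 19.1% higher and 15.6% lower, apply to each of these lists.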

How the data were processed

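The authors deposited raw counts, whole numbers for each gene and cell. The sources used here do not say whether a count is a molecule or a read. Bowtie2 2.1.0 and hg19 are named in the submitters' processing notes. For counting tool, annotation and cell filter: not given in the sources used here. A row named unknown (2 counts) was left out. All 603 columns were used, and no doublet caller was run because cells were sorted singly.

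Levels are CPM over summed counts. Cells were thinned without replacement to 1100 counts, leaving out 43 of 603. Scores are summed thinned counts over gene lists, and the 186 cells with the highest scores were set against the 186 with the lowest. Ratios use thinned sums with exact conditional binomial intervals. These were tried on simulated cells with random groups and no spread between cells beyond sampling. That trial cannot show how well the intervals hold for the real cells, which vary more and were grouped by a score. With 1 sample no p-value was made, and no count model was run. The members and lists were chosen with earlier results of these data known. The naming rule takes all 10 members, 5 leading mitotic genes, the 3 highest levels and 2 largest mitotic ratios of each related list (at least 50 counts), and the 5 genes most correlated with 4 members. Alternatives changed scaling, depth (2000 counts), seed, split, barcode set, score genes and the deepest cell. Python 3.11.15, NumPy 2.4.6 and SciPy 1.17.1 were used.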

Additional observations from a re-analysis of the deposited data

How the results depend on the processing

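Directions with the mitotic score held in all 10 alternatives for TUBA1A, TUBA1B, TUBA1C, TUBB, TUBB2A, TUBB4B and TUBB6, and in 5 of 10 for TUBB3, and between 4 and 6 members were past 1.5-fold in either direction. Of the 543 recomputed values 474 stayed near the reported one and 69 moved beyond that. Near meant within the interval for ratios and shares of the mix, and within 0.1 for correlations. For counts of members past 1.5-fold and background shares of genes, which have no interval, it meant within 1.5-fold of the reported value. For the 10 members summed, the mitotic log2 ratio was 0.54 between cells above and below the median score, 0.92 in barcode set 1 and 0.67 in set 2. The DNA replication ratio of 0.31 became 0.22 with the median split and 0.21 in set 2. The mesenchymal ratio of 0.0021 became -0.13 in set 1 and 0.12 in set 2, so it had no stable direction. The adrenergic ratio of -0.03 was 0.094 among cells with high mitotic scores, and the neuronal ratio of -0.14 was -0.044 without UCHL1, both settings chosen after seeing the data. The beta share of tubulin counts was 35.2% with thinned counts. The correlation of TUBB4B with the mitotic score was 0.47 at 2000 counts per cell, over 327 cells. With genes of at least 10 counts in the background, 27.5% were higher and 25.2% lower by 1.5-fold, against 19.1% and 15.6%. No paired analysis was possible because the columns carry no replicate number. Depth limits TUBB2A, TUBB3 and TUBB6, which have fewer than 60 thinned counts in each score group, and TUBA4A and TUBB2B could not be compared. Intervals omit the spread between cells, so they are too narrow for genes whose variance exceeds their mean. The cause of these changes was not tested.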
